A study of Homo sapiens with 480 samples.

Results

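The small leucine-rich proteoglycans examined here were 8 genes, DCN, BGN, ASPN, LUM, FMOD, PRELP, OMD and OGN, taken by symbol from tables of 27021 genes as members of the family. They were followed through the reprogramming of BJ fibroblasts, an established line of human neonatal skin fibroblasts, by single-cell mRNA sequencing of 480 cells in 5 groups of 96. The groups were untreated BJ cells labelled WT, BJ cells with OSKM (the transcription factors OCT4, SOX2, KLF4 and MYC) induced from viral vectors for 2 days (D2) or 8 days (D8), and cells after 16 days, divided into those with and those without the surface epitope TRA-1-60, called positive cells and negative cells below. All groups come from the same line, and no label names a second culture, infection or chip. Each group therefore counts as 1 culture, its cells are not replicates, and no difference between groups was tested.

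Small leucine-rich proteoglycans are secreted proteins of the extracellular matrix whose core, built of leucine-rich repeats, binds collagen fibrils and sets their diameter and spacing. Most carry chains of chondroitin or dermatan sulphate (the class of decorin and biglycan) or of keratan sulphate (the class of lumican and fibromodulin), and several bind growth factors such as TGF-beta and BMPs. In skin they are products of dermal fibroblasts, and the loss of fibroblast matrix genes is a known early part of reprogramming to pluripotency. TRA-1-60 is a carbohydrate epitope of pluripotent cells that is carried by podocalyxin.

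The genes lie partly in clusters, and their starts differ in base composition. RefSeq promoter windows of 300 bases (250 before and 50 after the start, build GRCh38.p14) were matched for 5 of the 8 members, ASPN, BGN, FMOD, OGN and PRELP. Windows are shown for 3 of them: ASPN and OGN, whose levels were far above BJ in negative cells, and BGN, whose level was not. Capitals mark matches, on either strand, to TATAAA in OGN and to GGGCGG in BGN. The ASPN window (chr9:92482457-92482756, minus strand) holds neither.
ASPN: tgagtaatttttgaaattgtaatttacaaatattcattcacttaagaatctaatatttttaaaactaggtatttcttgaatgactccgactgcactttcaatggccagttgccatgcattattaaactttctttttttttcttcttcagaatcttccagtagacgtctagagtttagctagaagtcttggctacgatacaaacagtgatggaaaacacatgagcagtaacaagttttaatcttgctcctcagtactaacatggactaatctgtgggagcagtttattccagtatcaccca
OGN: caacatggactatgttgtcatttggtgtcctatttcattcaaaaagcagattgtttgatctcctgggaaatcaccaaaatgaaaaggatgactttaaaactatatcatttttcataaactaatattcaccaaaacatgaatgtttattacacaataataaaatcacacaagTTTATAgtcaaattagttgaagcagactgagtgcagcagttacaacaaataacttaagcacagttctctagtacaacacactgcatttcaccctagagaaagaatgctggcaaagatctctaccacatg
BGN: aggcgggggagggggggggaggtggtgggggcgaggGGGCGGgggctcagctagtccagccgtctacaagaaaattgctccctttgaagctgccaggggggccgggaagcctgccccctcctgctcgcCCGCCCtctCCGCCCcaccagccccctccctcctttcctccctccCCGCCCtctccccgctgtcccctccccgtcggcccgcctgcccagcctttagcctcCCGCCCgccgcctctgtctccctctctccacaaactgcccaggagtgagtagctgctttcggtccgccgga
The OGN window lies at chr9:92404650-92404949 on the minus strand, and the window of a second OGN start overlaps it and holds the same match to TATAAA. The BGN window lies at chrX:153494730-153495029 on the plus strand and holds 5 matches to GGGCGG. The GC content was 34% in ASPN, 33.3% in the OGN window shown and 71.7% in BGN. FMOD and PRELP, whose means were also higher in negative cells than in BJ, had 52.3% and 52.7%. A link of GC content with level was not tested. Of 35116 RefSeq promoter windows, 3.39% had a lower GC content than that of ASPN, 2.83% a lower one than that of OGN and 83.4% a lower one than that of BGN, with a median of 58.7%. TATAAA was found on either strand in 11.5% of all windows and GGGCGG in 44.95%. The AP-1 motif TGANTCA, found in 7.71% of all windows, matched none of the windows of the 5 members. The TEAD motif GGAATG, found in 14.03%, matched only PRELP, at 2 places. FMOD held 1 match to TATAAA and 2 to GGGCGG. These are letter matches within 300 bases and no measure of binding.

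Levels are FPKM brought to a sum of 1000000 in each cell, a scale per length on which genes can be compared. A gene counted as present in a cell at a value of 1 or more. After a filter on cells, 92 BJ, 96 D2, 92 D8, 95 positive and 85 negative cells were kept, 460 in all, with a median of 5678 to 5915 genes per cell in each group. The tables hold no read counts, so the depth of a cell is unknown. Among the kept cells, 32 positive cells had fewer than 4000 genes, against 3 to 15 in the other groups. The 5 groups are separate tables, and the sources used here do not say whether they were normalized together. The tables do differ in some genes. RPL21, a ribosomal protein gene, averaged 1225 at D2 and 992 in negative cells but 2.49 to 5.90 in the others. Another 15 genes were each found in 80% or more of the BJ, D2 and positive cells but in 25% or fewer of the D8 and negative cells; none of the 8 proteoglycans was among them. Marker genes followed the labels of positive and negative cells. The summed level of 11 pluripotent cell genes had a median of 2831 in positive and 48.7 in negative cells. The summed level of 15 fibroblast genes had a median of 15247 in BJ, 15845 at D2, 16202 at D8, 1580 in positive and 13683 in negative cells. This sum did not fall at D8 although FN1 averaged 50.1 there, against 1181 in BJ. S100A4, a large part of it, averaged 14077 at D8 and 2975 in BJ.

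The 8 genes together were lowest in positive and highest in negative cells. Their summed level had a median over cells of 153 in BJ, 124 at D2, 10.2 at D8, 0.562 in positive cells and 1545 in negative cells. Single cells ranged from 0 to 3202 in BJ, 8.32 to 1439 at D2, 0 to 1228 at D8, 0 to 135 in positive cells and 37.6 to 4126 in negative cells. The interquartile range of the negative cells, 999 to 1989, lay above that of every other group, although the highest BJ, D2 and D8 cells reached into its range. The mean of the sum was 334 in BJ and 1541 in negative cells, a log2 ratio of 2.20 on the scale log2(mean + 1). LUM and BGN made up 74.2% and 21.3% of the summed level in BJ. In negative cells LUM made up 64.8%, ASPN 23.4% and BGN 2.31%, so the mixture differed as well as its amount.

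**Figure D1:**
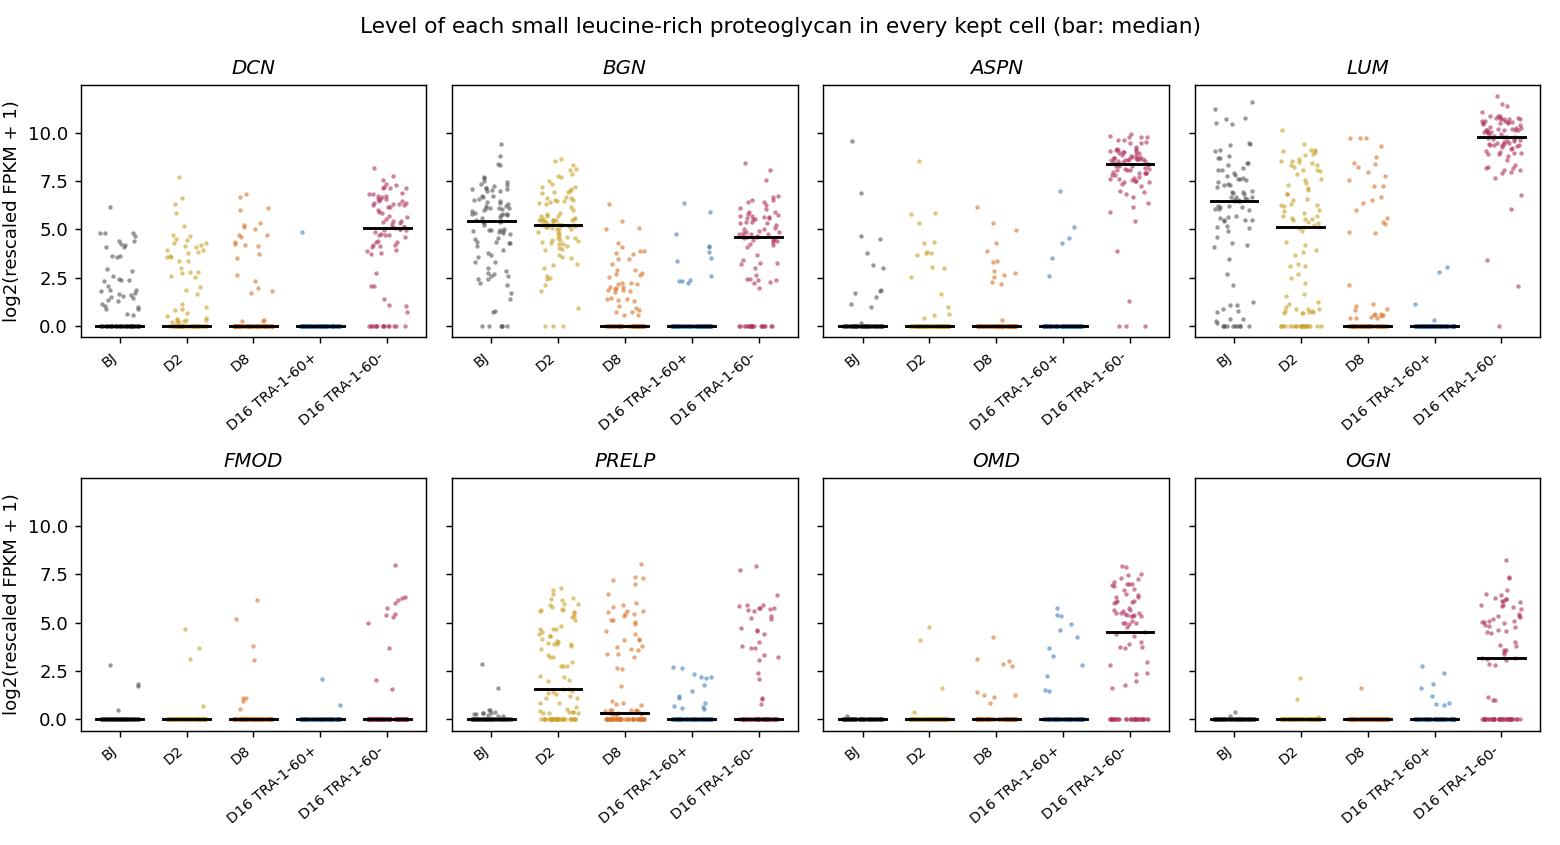
Each point is 1 kept cell, with the group on the horizontal axis and log2(rescaled FPKM + 1) on the vertical axis, and the black bar is the median of the group. LUM and ASPN fill a narrow high band in the TRA-1-60 negative cells, OGN and OMD stand above the floor there, and all 8 genes lie mostly at 0 in the positive cells.

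For every gene the lowest cell of every group was at 0, so medians and highest cells are given. DCN encodes decorin, a binder of collagen fibrils and of TGF-beta. It had a median of 0 in BJ, 0.00772 at D2, 0 at D8, 0 in positive cells and 32.5 in negative cells. The highest cells stood at 70.7, 208, 112, 27.9 and 291 in that order. The interquartile range of the negative cells, 12.3 to 80.2, lay above that of BJ (0 to 2.65), while BJ, D2 and D8 overlapped one another widely. Mean levels were 4.18 in BJ, 8.44 at D2, 7.29 at D8, 0.294 in positive and 51.97 in negative cells, 12.4-fold above BJ. The share of cells with DCN was 38.04% in BJ and 82.4% in negative cells, and a single positive cell held all of the DCN found there.

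BGN, encoding biglycan, the closest relative of decorin, went another way. Its median was 41.5 in BJ, 36.8 at D2, 0 at D8, 0 in positive and 23.5 in negative cells. The highest cells reached 693, 399.8, 79.8, 80.5 and 345. The groups formed a high set, BJ, D2 and negative cells, whose interquartile ranges overlapped, and a low set, D8 and positive cells. BGN averaged 71.2, 66.7, 4.19, 2.65 and 35.5 in the same order. It was present in 91.3%, 95.8%, 40.2%, 13.7% and 77.6% of cells. BGN was the only one of the 8 whose mean in negative cells was below that in BJ.

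ASPN encodes asporin, which lacks a glycosaminoglycan chain and binds collagen and TGF-beta. Its median was 0 in all groups except negative cells, where it was 334. The interquartile range of the negative cells ran from 191 to 470, against 0 to 0 in each other group. Single BJ, D2 and positive cells reached 773, 372 and 126, so the ranges overlap through a few cells. One BJ cell held 79.3% of all ASPN in that group. The mean was 10.6 in BJ, 6.60 at D2, 2.40 at D8, 2.28 in positive and 360 in negative cells. ASPN was present in 13.04% of BJ cells, with an exact binomial (Clopper-Pearson) 95% interval of 6.93% to 21.7% that covers counting error only, and in 96.5% of negative cells (90.03% to 99.3%).

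LUM encodes lumican, a keratan sulphate proteoglycan that orders collagen fibrils in skin and cornea. It was the highest of the 8 genes by mean in BJ, D2, D8 and negative cells. Its median was 87.8 in BJ, 33.5 at D2, 0 at D8, 0 in positive and 880 in negative cells. The highest cells reached 3124, 1146, 859, 7.28 and 3771. The interquartile range of BJ cells, 14.5 to 204.5, lay below that of negative cells, 540 to 1431, while single BJ cells exceeded most negative ones. The mean was 248 in BJ and 999 in negative cells, 4.03-fold higher. By mean level LUM ranked 530th of all genes in BJ and 176th in negative cells. At D8 only 25 of 92 cells held LUM, but these had a median of 149, above the 99.7 of BJ cells with the gene. In positive cells 3 of 95 cells held it.

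FMOD, PRELP and OMD belong to the same class as LUM. FMOD, encoding fibromodulin of collagen fibrils, had a median of 0 in every group. It was present in 3 BJ, 3 D2, 6 D8, 1 positive and 13 negative cells, with highest values of 6.08, 24.7, 72.1, 3.21 and 247. The negative cells with FMOD were thus a minority (15.3%) with a median of 42.03 among themselves.

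PRELP encodes prolargin, which anchors basement membranes to the collagen beneath. It was at 1 or more in only 2 of 92 BJ cells, with a highest value of 6.32. By D2 it was present in 56 of 96 cells, with a median of 1.97 and a highest cell of 110.5. At D8 it was present in 34 of 92 cells (highest 262), and in negative cells in 30 of 85 (highest 239). Means were 0.120 in BJ, 16.1 at D2, 18.5 at D8, 0.369 in positive and 15.4 in negative cells. PRELP thus stood at like means at D2, D8 and in negative cells, whose interquartile ranges overlap. Positive cells held it at 5.58 or less, and their share with PRELP was 10.5% in all kept cells but 1.59% in those with at least 4000 genes.

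OMD encodes osteomodulin, known from bone matrix, and OGN encodes osteoglycin, also called mimecan, of the third class of the family. Both were below 1 in all 92 BJ cells, which allows a share of up to 3.26%, and no fold over BJ is given. OMD had a median of 21.8 in negative cells and 0 in every other group, with highest cells of 0.108 in BJ, 25.9 at D2, 17.8 at D8, 53.6 in positive and 245 in negative cells. It was present in 3.13% of D2, 9.78% of D8, 12.6% of positive and 67.1% of negative cells. OGN had a median of 8.08 in negative cells and 0 elsewhere, with highest cells of 0.313, 3.36, 2.07, 5.73 and 305 in the order of the groups. It was present in 48 of 85 negative cells (56.5%) and in 2, 1 and 5 cells at D2, at D8 and in positive cells. For both genes most negative cells lay above all BJ cells, and those without the gene overlapped them.

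**Figure D2:**
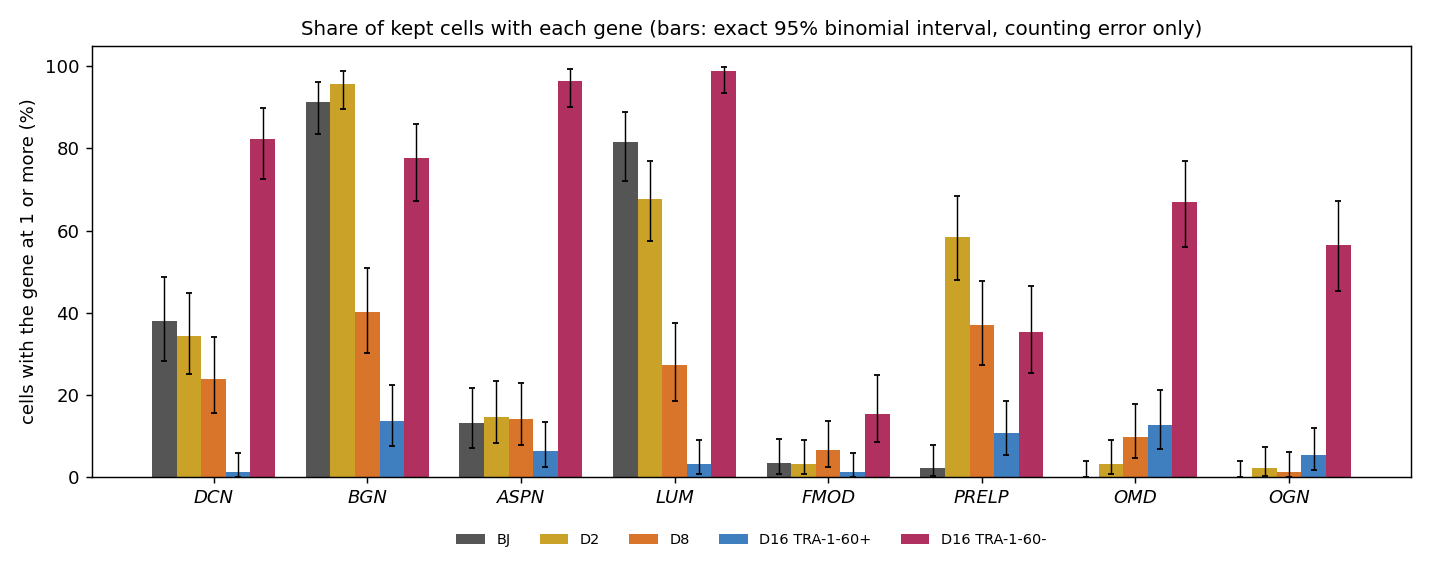
Bars give the percentage of kept cells of each group with a gene at 1 or more, and thin lines give the exact 95% binomial interval, which covers counting error only. ASPN stands at 6.32% to 14.6% in 4 groups and at 96.5% in negative cells, PRELP stands at 2.17% in BJ and 58.3% at D2, and BGN is present in most BJ, D2 and negative cells.

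The comparison of negative cells with BJ asked how cells that had not gained the epitope after 16 days differed from the fibroblasts they came from. Genes with a mean of at least 1 on one side or the other entered the comparison as measured. A call of higher or lower needed a log2 ratio of means, with 1 added to each, of at least 1 in either direction, and mean log2 values over cells that differed in that direction too. Of the 8 genes, 7 were at least 2-fold higher and none lower. FMOD, OGN, PRELP and OMD averaged below 1 in BJ, so they were measured only through negative cells and could not be called lower. This limit holds for any gene of the lists below that averaged below 1 in BJ. Among all 13163 genes measured, 31.4% were called higher and 13% lower. The median log2 ratio was 3.61 for the 8 genes and 0.51 for all genes. OMD had the largest log2 ratio at 5.48, followed by ASPN at 4.96, OGN at 4.78, PRELP at 3.87, DCN at 3.35, FMOD at 3.15 and LUM at 2.00. That order depends on the 1 added to each mean, since OMD, OGN, PRELP and FMOD were near 0 in BJ: as differences of mean log2 values ASPN was first at 7.41, LUM next at 3.86, OMD at 3.60 and PRELP at 1.57. Without the highest cell of each group the ratio of ASPN was 6.78. FMOD, present in few cells, had 0.71 as a difference of mean log2 values and was then not called. BGN had a ratio of -0.98, just short of a call, and was called lower with 5 of 9 other settings, with ratios down to -1.16. With FPKM as deposited, 3002 genes were higher and 2146 lower, against 4136 and 1710 after rescaling; the 7 calls among the members stayed 7.

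The step from D8 to negative cells gave a like count, with 7 of 8 higher and none lower against 28.4% and 10.6% of all measured genes. These are the same negative cells as in the comparison with BJ. OGN and OMD averaged below 1 at D8, so they were measured only through negative cells and could not be called lower. The median log2 ratio was 3.35, against 0.49 over all genes. ASPN differed most, with a log2 ratio of 6.73 and means of 2.40 and 360, and LUM, at 3.89, was 15.1-fold higher. BGN, below its level in BJ, was 8.48-fold higher than at D8. PRELP was the member without a call, at a log2 ratio of -0.25. FMOD had 0.55 as a difference of mean log2 values, which left 6 of 8 higher. Calls over all genes were 3677 higher and 1376 lower, and 2390 and 1664 with FPKM as deposited.

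Between positive and negative cells after 16 days, all 8 genes were lower in the positive cells, against 21.4% of all measured genes lower and 24.8% higher. DCN, LUM, FMOD, OGN and PRELP averaged below 1 in positive cells, so they were measured only through negative cells and could not be called higher. The median log2 ratio was -4.10, against 0.06 over all genes. LUM differed most, with a log2 ratio of -9.76 and means of 0.154 in positive and 999 in negative cells. ASPN stood at -6.78 (-7.49 without the highest cell of each group), DCN at -5.36, OGN at -4.54, OMD at -3.66, PRELP at -3.58, BGN at -3.33 and FMOD at -3.26. In cells with at least 4000 genes, 63 positive and 82 negative, 8 of 8 were again lower. With mean log2 values 7 were, as FMOD had -0.76. Of 15 fibroblast genes 12 were lower as well (median -4.62), and all 12 mitotic genes were higher (median 4.01), whose part in the result was not tested. Scaling on housekeeping genes moved the median of all genes to 0.43 and the split from 3480 higher and 3008 lower to 4652 and 2367; the count among the members was 8 of 8 lower there too.

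Fewer members differed at the earlier steps. At D2 against BJ, 5 of the 8 were measured. PRELP was higher, against 12.2% of all genes, and LUM was lower, against 12.1%. PRELP had a log2 ratio of 3.94 and, with a mean below 1 in BJ, was measured only through D2 and could not be called lower. LUM had a log2 ratio of -1.07, with means of 248 in BJ and 117 at D2. This call on LUM depended on the scale: it stood at -0.88 in cells with at least 4000 genes and at 1.49, the other direction, with FPKM as deposited, where the split of all genes was 2647 higher and 1397 lower, against 1525 and 1515. DCN and BGN had log2 ratios of 0.87 and -0.09. ASPN had -0.61, or 0.22 without the highest cell of each group. Markers of other cell types were higher at D2 too, and their part in the PRELP result was not tested. Of 6 measured blood and immune genes 3 were higher and 1 lower, with a summed median of 5.06 in BJ (0 to 145) and 79.9 at D2 (0 to 7242). The hemoglobin gene HBA2 and the keratin gene KRT14 were listed at 0 in all BJ cells and averaged 374 and 81.6 at D2. At D8 against D2, 6 were measured. BGN and ASPN were lower, against 12.5% of all genes, and none was higher, against 13%. BGN was 15.9-fold lower. ASPN had a log2 ratio of -1.16, but -0.50, with no call, without the highest cell of each group. LUM had -0.81, short of a call, while its share of cells went from 67.7% to 27.2%. With mean log2 values the 2 genes lower were BGN and LUM, at -4.03 and -2.37, and ASPN had -0.14. The median of the members was -0.50 and that of all genes 0.06. With FPKM as deposited all genes split into 1416 higher and 2368 lower, against 1636 and 1571. Of 13 measured fibrillar collagens and partners 9 were lower and 1 higher at this step (median -1.62), with FN1 at 971 and 50.1.

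A last comparison set positive cells against D8, with 7 members measured. DCN, LUM, FMOD and PRELP were lower, against 11.6% of all genes, and OMD was higher, against 30.3%. The lower genes averaged below 1 in positive cells and OMD below 1 at D8, so each could be called in that direction only. LUM had the largest log2 ratio, -5.87, and PRELP the next, -3.83. FMOD, at -1.22, rested on 6 D8 cells and had -0.71 without the highest cell. OMD, at 1.18 with means of 0.557 and 2.52, had 0.96 with housekeeping scaling and 0.82 with FPKM as deposited, both short of a call. BGN and ASPN, already low at D8, had log2 ratios of -0.51 and -0.05. The median of the members was -1.22 and that of all genes 0.49.

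The 8 genes were also counted within single cells. The median cell held 2 of them in BJ, 3 at D2, 1 at D8, 0 in positive cells and 5 in negative cells. Cells with 4 or more were 9 of 92 in BJ, 22 of 96 at D2, 16 of 92 at D8, 0 of 95 in positive cells and 77 of 85 in negative cells. Every negative cell held at least 2, and 2 cells held all 8. At D8 the cells were mixed, with 29 of 92 holding none and 16 holding 4 or 5. In positive cells 53 of 95 held none.

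**Figure D3:**
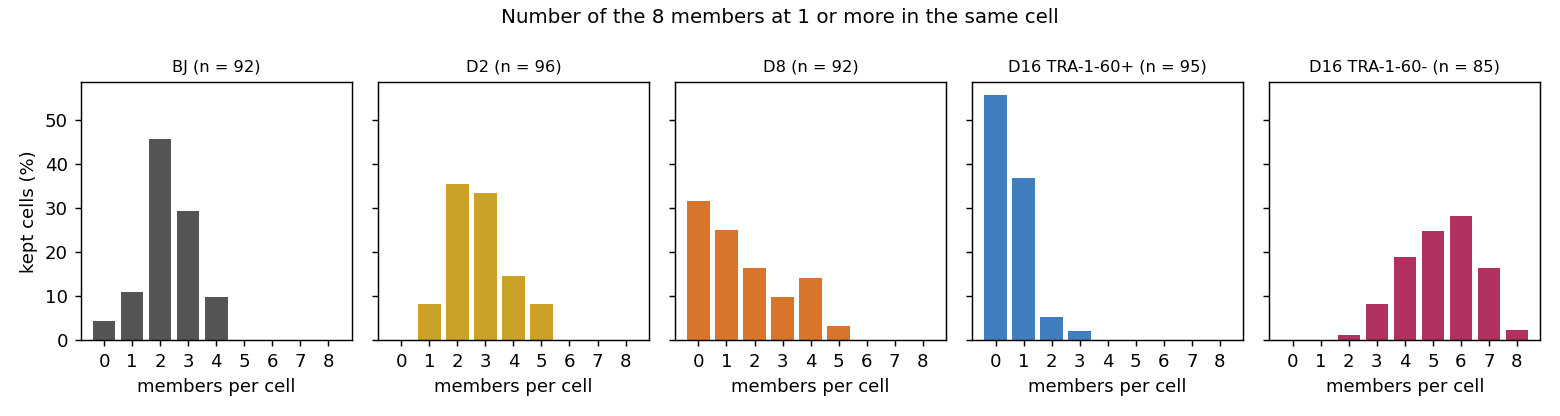
Each panel is 1 group, with the number of the 8 genes at 1 or more in a cell on the horizontal axis and the percentage of kept cells on the vertical axis. The negative cells peak at 5 and 6 genes per cell, positive cells at 0, and D8 has cells at both 0 and 4.

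In positive cells 9 of 95 cells held LUM, DCN or ASPN. COL1A1 was present in 4 of the 9 (mean 58.4, median 0.772) and in 20 of the other 86 (mean 2.46, median 0), and COL3A1 in 2 of the 9 and 6 of the 86. COL1A2 was present in 6 of the 9 (mean 291, median 56.1) and in 51 of the 86 (mean 54.4, median 2.23). The pluripotency factor NANOG averaged 27.4 in the 9 and 187 in the 86, and TDGF1, a co-receptor of the NODAL signal in pluripotent cells, 93.2 and 841. L1TD1, an RNA regulator gene read beside them, was not lower in the 9. It averaged 228 in the 9 and 225 in the 86, with medians of 222 and 156. NANOG was present in 7 of the 9 and in 73 of the 86, so most of the 9 held both kinds of transcript. Doublets cannot be called in tables of this kind, and their part was not tested. In negative cells 84 of 85 cells held LUM, DCN or ASPN, and NANOG was present in 4 of the 84.

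Across cells of 1 group, Pearson's r of log2(value + 1) between members is given as a description. The cells of a group share a culture and a table, and r moves with zeros. In the 85 negative cells the 28 pairs ran from -0.30 to 0.60 with a median of 0.03. LUM and ASPN had the highest r, 0.60, but a Spearman rho of 0.21, so by ranks the relation was weak. DCN and LUM had r = 0.53 and rho = 0.57. ASPN and PRELP had the lowest, -0.30. BGN had r = 0.03 with LUM and 0.00 with ASPN. At D8, in 92 cells, LUM went with PRELP (r = 0.63) and with DCN (r = 0.60), and 20 of 25 cells with LUM also held PRELP. In the 92 BJ cells LUM and BGN had r = 0.41. Members were compared with the number of genes per cell too, and in negative cells r lay between -0.13 for BGN and 0.28 for OMD. At D8 it was 0.35 for LUM and 0.33 for PRELP, the pair with the r of 0.63, whose part in that value was not tested. For PRELP it was 0.38 at D2 and -0.37 in positive cells.

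By the order of gene starts in RefSeq (GRCh38.p14), OGN, OMD and ASPN follow one another on chromosome 9. The start of CENPP, a centromere protein gene, precedes them and that of ECM2, another leucine-rich matrix gene, follows. Gene ends were not read, so a gene named here as near may overlap the cluster. All 3 were present together in 38 of 85 negative cells and in no cell of any other group. At least 1 of the 3 was present in 97.6% of negative cells, against 13.04% of BJ, 17.7% of D2, 22.8% of D8 and 21.1% of positive cells. Genes near them in that order differed less. CENPP averaged 6.53 in BJ and 8.88 in negative cells, ECM2 0.564 and 1.87, and BICD2 24.5 and 14.6. IPPK, an inositol phosphate kinase gene, averaged 1.74 and 8.10. IARS, an isoleucyl-tRNA synthetase gene, averaged 57.1 and 208, a log2 ratio of 1.84. Of 6 genes listed around the cluster, these 2 were called higher against BJ, with a list median of 0.89 and a share near the 31.4% of all measured genes. On chromosome 12 the order is EPYC, KERA, LUM, DCN and BTG1. EPYC and KERA encode epiphycan and keratocan of the same family. They averaged 3.14 and 0.656 in negative cells, present in 5 cells and 1 cell, and were below 1 in every cell elsewhere. BTG1 averaged 6.68 in BJ and 9.67 in negative cells. On chromosome 1 FMOD and PRELP stand side by side between BTG2 and OPTC, yet PRELP was common at D2, at D8 and in negative cells and FMOD in few cells of any group, 13 of them negative cells and 13 in the other groups.

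**Figure D4:**
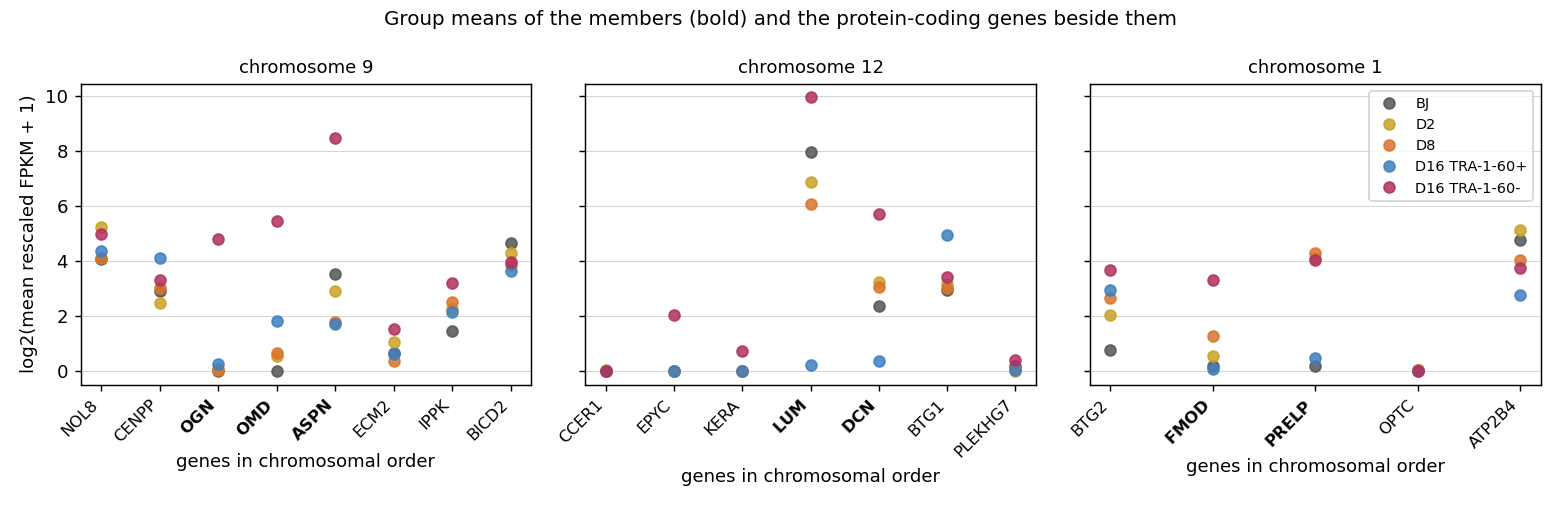
Genes are placed by the order of their starts on the horizontal axis, without distances or overlaps. Each point is the group mean as log2(rescaled FPKM + 1). On chromosome 9 negative cells stand apart at OGN, OMD and ASPN and within the spread of the other groups at NOL8, CENPP and BICD2. They are also the highest group at ECM2 (mean 1.87, next 1.07 at D2) and IPPK (8.10, next 4.71 at D8).

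Genes with the most similar course over the 5 group means were found by the distance of centred log2(mean + 1) values among the 8583 genes that averaged 10 or more in some group. BGN was nearest to FRMD6 (distance 0.32), then to FN1, encoding fibronectin (1.16), NBL1, LOX, encoding the collagen cross-linking enzyme lysyl oxidase, and ADAM12. FRMD6 averaged 155, 157, 13.7, 7.71 and 78.8 in the order BJ, D2, D8, positive and negative. LUM was nearest to NNMT (1.85) and COL6A3 (2.00), which averaged 216 in BJ and 888 in negative cells. DCN was nearest to TIMP1, an inhibitor of metalloproteinases (0.68), and ASS1. ASPN was nearest to CILP, encoding a cartilage matrix protein (1.09), COL10A1 and CXCL14. OGN was nearest to LINC01091 (0.24), C5orf56 and F13A1, and OMD to NTRK2 (0.58) and CDKN2B (0.88). PRELP was nearest to LYPD2 (0.49) and ICAM2. Over the 85 negative cells the genes with the highest r were ASPN, DCN and NNMT (0.52) for LUM, LUM and PTN (0.52) for DCN, PSAT1 (0.62) for ASPN, MFAP4 (0.42) for BGN, COL26A1 (0.43) for OGN, VAMP3 (0.47) for OMD and SCARA5 (0.69) for PRELP. Over the 92 BJ cells they were COL3A1 (0.60) and COL1A1 (0.60) for LUM and COL5A1 (0.45) for BGN. These orders come from 5 points or from cells of 1 table and carry no test.

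Other genes of the same biology were read from lists, for negative cells against BJ, where 31.4% of all measured genes were called higher and 13% lower with a median of 0.51. Of 9 further members of the family 4 were measured and 3 were higher, with a median of 1.61. TSKU, encoding tsukushi, averaged 1.44 and 58.8, and EPYC was the next. Of 14 measured fibrillar collagens and their partners 7 were higher and none lower (median 0.99). COL3A1 averaged 205 in BJ and 1029 in negative cells, and COL2A1, the cartilage collagen, 0.0144 and 24.8. In positive cells COL3A1 averaged 13.2 and COL2A1 77.7, so COL2A1 was higher there than in negative cells. Against D8, 13 of the 14 collagens and partners were higher, with a median of 3.41 that lay beside the 3.35 of the 8 members.

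Enzymes that build the glycosaminoglycan chains had smaller medians against BJ than the 8 members. Of 22 measured chondroitin and dermatan sulphate enzymes 5 were higher and none lower (median 0.28, below that of all genes). CHST11, a chondroitin sulphotransferase, averaged 0.603 in BJ and 18.1 in negative cells, and PAPSS1, which makes the sulphate donor, 60.0 and 283. Of 7 keratan sulphate enzymes 3 were higher, among them the sulphotransferase CHST2 (0.829 and 42.7) and FUT8, and none lower (median 0.57). Against D8, 15 of 22 chondroitin and dermatan sulphate enzymes were higher and none lower, with a median of 1.10. Over all genes 28.4% were higher there, with a median of 0.49. None of the 7 keratan sulphate enzymes was called at that step (median -0.16). Between positive and negative cells, B3GNT7, a keratan sulphate chain enzyme, averaged 73.1 in positive and 2.71 in negative cells. Of its list 3 of 9 measured genes were higher in positive cells and 2 lower, and of 23 chondroitin and dermatan sulphate enzymes 2 were higher and 9 lower, against 24.8% and 21.4% of all genes. Of 16 other proteoglycan core proteins 5 were higher, a share like that of all genes, and 4 lower (median -0.44). VCAN, encoding versican, averaged 16.5 in BJ and 141 in negative cells, PRG4, encoding lubricin, 0.0330 and 7.20, and SDC3 6.18 and 1.28. VCAN was higher still in positive cells, with a mean of 302. SRGN, encoding serglycin, averaged 123 in BJ and was listed at 0 in all negative cells.

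Of 11 measured enzymes that process or cleave these proteins 6 were higher and 1 lower (median 1.04). BMP1, the procollagen C-proteinase that also trims some of the family, averaged 4.99 in BJ and 25.6 in negative cells, and TLL2, a related proteinase, 0.0980 and 9.93. MMP3 averaged 32.4 in BJ and was listed at 0 in negative cells. Of 16 measured ligands and receptors known to bind members of the family 8 were higher and 2 lower (median 0.97). BMP4 averaged 0.954 in BJ and 83.4 in negative cells, and BMP2 0.372 and 5.84. MET, a receptor bound by decorin, averaged 22.2 and 6.72, and TLR2, a receptor of biglycan, 2.16 in BJ and was listed at 0 in negative cells.

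**Figure D5:**
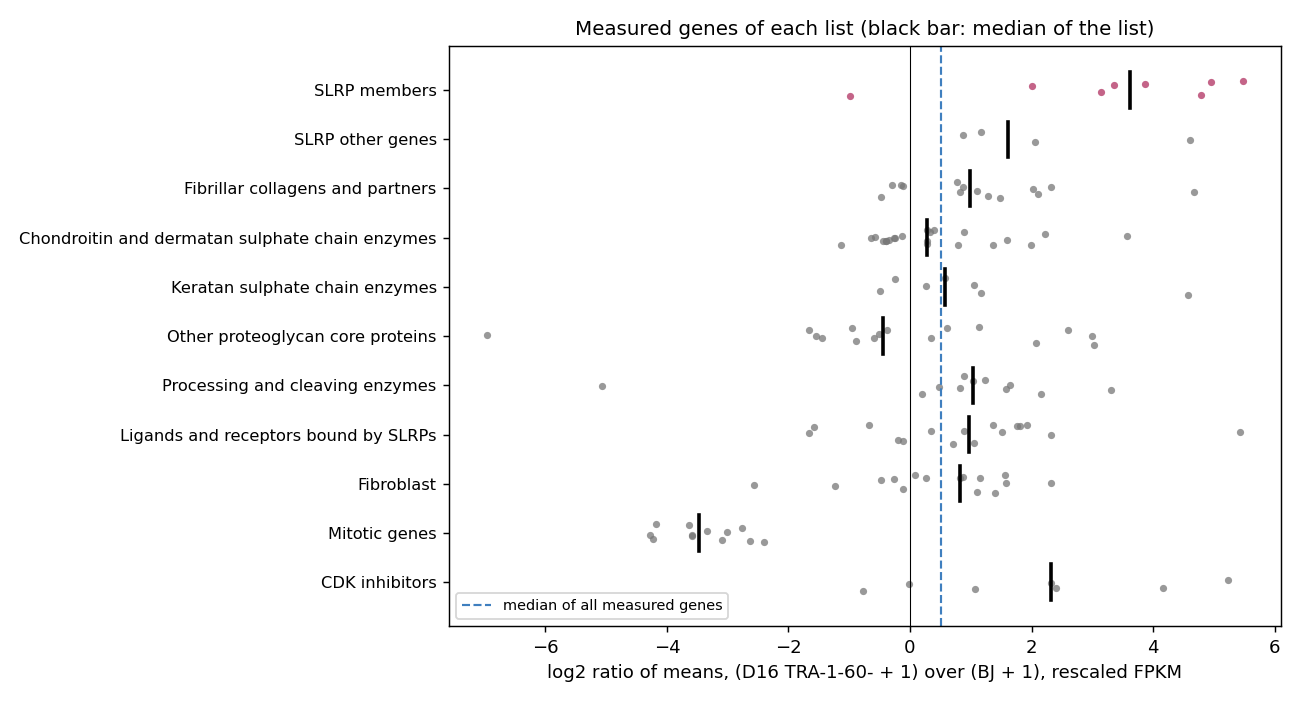
Each point is 1 measured gene of a list, placed by its log2 ratio of means between the TRA-1-60 negative cells and BJ, with 1 added to each mean. SLRP stands for small leucine-rich proteoglycan. The black bar is the median of the list and the dashed line, at 0.51, that of all measured genes. Of the 8 proteoglycans 7 lie at 2.00 or more and BGN at -0.98.

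Several marker lists differed beside the proteoglycans in negative cells, and their part in the result was not tested. All 12 mitotic genes were lower than in BJ (median -3.46), and their summed level had a median of 1236 in BJ (8.30 to 6699) and 17.4 in negative cells (0 to 6980). Of 7 CDK inhibitor genes 5 were higher (median 2.33), with CDKN2B at 0.648 and 61.3 and CDKN2A at 10.2 and 199.6. The summed median of that list was 60.96 in BJ (0 to 961) and 495 in negative cells (43.6 to 3572). Of 15 fibroblast genes 6 were higher and 2 lower (median 0.83), and VIM, encoding vimentin, averaged 7607 and 3223. Of 8 smooth muscle and pericyte genes 2 were higher and 4 lower, with summed medians of 2507 (14.75 to 12724) and 1189 (0 to 6807). Of the other lists, 4 of 6 measured simple epithelial genes were higher and 1 lower, and 2 of 4 blood and immune genes were higher and 1 lower. Of 11 pluripotent cell genes 4 were measured and these were higher. Among them GDF3, LEFTY1 and SALL4 averaged below 1 in BJ, so they were measured only through negative cells and could not be called lower. That limit does not hold for PODXL, which encodes podocalyxin. It averaged 1.95 in BJ and 54.9 in negative cells, a log2 ratio of 4.24. NANOG was not measured, and LIN28A, LIN28B and ZFP42 were below 1 in all negative cells. Because OMD, OGN and ASPN are known from bone, cartilage and tendon, markers of those tissues were read as well. SCX, TNMD and THBS4, markers of tendon, and ACAN, SOX5, SOX6, COL9A1, SP7, IBSP and DMP1, markers of cartilage and bone, were below 1 in all 85 negative cells. Of the cartilage and bone list 5 genes were measured, COL2A1 was higher and none was lower. SOX9, MATN3, RUNX2 and BGLAP had log2 ratios of 0.18, 0.78, 0.15 and 0.18. By mean, COL2A1 was higher still in positive cells, at 77.7. EGR2, another gene of the tendon list, averaged 0.297 in BJ and 132 in negative cells, and its list had 1 higher and 2 lower of 5 measured. The summed tendon list had a median of 53.4 in BJ (0 to 670.5) and 145 in negative cells (0 to 742), and the cartilage and bone list 2.15 (0 to 71.6) and 5.93 (0 to 442). Of 8 endothelial genes 3 were measured and these were higher, with TEK at 0.513 and 37.7. All 3 averaged below 1 in BJ, so they were measured only through negative cells and could not be called lower. Summed medians of that list were 0 (0 to 16.3) and 27.3 (0 to 387), while its genes KDR and ERG were below 1 in all negative cells.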

How the data were processed

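The authors deposited 5 tables of FPKM (fragments per length of transcript and per library size), 1 per group, with a column per cell. STAR, Cuffnorm and the build hg19 are named per the submitters' processing notes, with versions not given in the sources used here. Per the labels' protocols, cells were captured on Fluidigm C1 mRNA chips and polyadenylated RNA libraries were made with Nextera XT. No depth was recovered from the low values. Read counts and the number of reads per cell are thus unknown.

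FPKM were rescaled to 1000000 per cell. Cells were kept with at least 2000 genes at 1 or more and with ACTB or GAPDH present, which left 460 of 480. Effects were log2((mean in A + 1)/(mean in B + 1)), a scale that understates the change of low genes. With 1 culture per group no p-value or standard error was computed over cells. Shares carry exact binomial 95% intervals, and the limit of a share of 0 is 3 cells of those kept. Doublets were not called. Named genes were all 8 members, up to 2 per direction and list with the largest log2 ratios among those called, and the genes most alike by the 2 measures given; marker genes below 1 in all negative cells, the neighbours on the chromosome and the genes set against members in single cells were added to these. The members and lists were chosen with earlier results of these data known. The code was tested on simulated data, where with about as many cells as here it recovered most but not all of the changes. Python 3.11.15, numpy 2.4.6, pandas 2.3.3 and scipy 1.17.1 were used. Alternatives were other filters on cells and genes, other scalings, a pseudocount of 0.1, mean log2 values and leaving out single high cells.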

Additional observations from a re-analysis of the deposited data

How the results depend on the processing

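Over 9 alternatives, 100 of 117 counts and summed levels stayed within the set margins, as did 362 of 432 single log2 ratios. Shares of cells were recomputed with 6 alternatives, 1 of them presence at 5 or more, and 228 of 240 stayed within their margins. The 7 of 8 genes higher in negative cells than in BJ stayed 7 with 8 alternatives and were 6 with mean log2 values, which also gave 6 higher against D8 and 7 lower in positive than in negative cells. At D8 against D2 that setting kept the count of 2 lower but had LUM in place of ASPN. At D2 against BJ, 2 genes were higher in cells with at least 4000 genes, with FPKM as deposited and with housekeeping scaling, and 0 lower with the former pair. With FPKM as deposited LUM reversed there, to 1.49. At D8 against D2, 1 was higher with a pseudocount of 0.1 and 1 lower without the highest cell. In negative cells against BJ, 1 (BGN) was lower with no cell filter, FPKM as deposited, housekeeping scaling, a pseudocount of 0.1 and mean log2 values, and the summed level was 3.40 with mean log2 values. In positive cells against D8, 0 were higher with FPKM as deposited, housekeeping scaling and mean log2 values, and 2 lower with the last. The causes were not tested, except that the median over all genes also shifted: with FPKM as deposited it was 0.17 at D2 against BJ and 0.25 in negative cells against BJ, and with rescaling -0.02 and 0.51. Values from 1 culture per group have no replicate check, and unknown depth limits what an absent gene shows. No paired analysis was possible because the numbers in the labels name cells and not cultures, and no comparison has a test.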
